A study of Homo sapiens with 9 samples.

Results

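The receptors of the TGF-beta, activin and BMP ligands were described in PANC-1 cells, an established line from a human pancreatic carcinoma, after transfection with a mimic of the microRNA miR-520f. The listed genes were TGFBR1, TGFBR2, TGFBR3, ACVR1, ACVR1B, ACVR2A, ACVR2B, BMPR1A, BMPR2 and ENG. A gene was taken by its symbol in the annotation of the array, through probe sets that carry that symbol alone. Of the 10 genes, 9 had such a probe set, 1 each, among 14232 genes measured this way. BMPR1A was not analysed here.

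The study compared 3 groups of 3 arrays, and all cells were PANC-1 cells that met the reagent Lipofectamine RNAiMAX. The non-transfected group (NT) received the reagent only, the negative control group (NC) received 20 nM of a mirVana control mimic, and the miR-520f group received 20 nM of a mirVana miR-520f mimic. RNA was taken at 72 h. The replicates are called biological in the labels, but nothing says how the cultures were kept apart, so the p-values cover the spread among these arrays, which may be technical. All results are from 1 cell line and from a microRNA supplied at a set dose, and the sources used here give no sequence for the control mimic.

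Ligands of this family bind as dimers to a complex of type II and type I receptors, both serine and threonine kinases. The type II receptor binds ligand and phosphorylates the type I receptor, which then phosphorylates SMAD proteins: SMAD2 and SMAD3 for TGF-beta and activin, and SMAD1, SMAD5 and SMAD9 for BMPs. Co-receptors without kinase activity present ligand to the complex or hold it back. In pancreatic carcinoma the pathway is known both for restraining growth and for promoting invasion, and TGFBR2 and SMAD4 are inactivated in some tumours.

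A microRNA finds its targets mainly through its seed, bases 2 to 8 from the 5′ end. The mature sequences of MIR520F and of some related microRNAs are shown because the seed bears on which of them may share targets with the mimic. They were read from RefSeq (GRCh38.p14), with the seed in capitals. The labels do not say which arm the mimic copies.
hsa-miR-520f-3p: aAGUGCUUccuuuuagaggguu
hsa-miR-520f-5p: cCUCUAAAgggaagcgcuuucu
hsa-miR-520c-3p: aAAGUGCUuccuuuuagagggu
hsa-miR-302a-3p: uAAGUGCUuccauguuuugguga
hsa-miR-373-3p: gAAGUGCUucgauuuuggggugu
hsa-miR-372-3p: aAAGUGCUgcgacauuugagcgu
The seed of hsa-miR-520f-3p was found in no other of 2370 mature names in the table. Its bases 1 to 7, however, were the seed of 12 other microRNAs, of the miR-302, miR-372, miR-373 and miR-520 families. hsa-miR-520f-3p is thus offset by 1 base from them. From base 2 of hsa-miR-520c-3p and base 1 of hsa-miR-520f-3p, the sequences shared a run of 21 bases, and for hsa-miR-302a-3p the run was 10 bases. Target sites in the receptor transcripts were not analysed here.

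The receptor genes did not move in 1 direction with miR-520f. TGFBR2 and the type I receptor gene ACVR1 fell against both controls, while the co-receptor gene TGFBR3, the activin receptor gene ACVR2B and the type I receptor gene ACVR1B rose against both. TGFBR1 and ACVR2A (higher) and ENG (lower) were called against NT and not against NC, and BMPR2 was called in neither comparison. Calls were made in limma where the p-value, adjusted over all genes by Benjamini-Hochberg, was below 0.05. Against NT, 5 receptor genes rose, 3 fell and 1 was not called, where 27.6% of all genes were called (14.5% higher, 13.1% lower). Against NC, 3 rose, 2 fell and 4 were not called, where 28.1% of all genes were called (15.4% higher, 12.6% lower). Against both controls with the same sign, 5 of 9 were called, where 18.0% of all genes were (9.37% higher, 8.61% lower). Both comparisons use the same miR-520f arrays, so their calls are not independent. The cells were profiled in bulk, in which fewer cells that carry an RNA and less of that RNA per cell cannot be told apart.

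**Figure D1:**
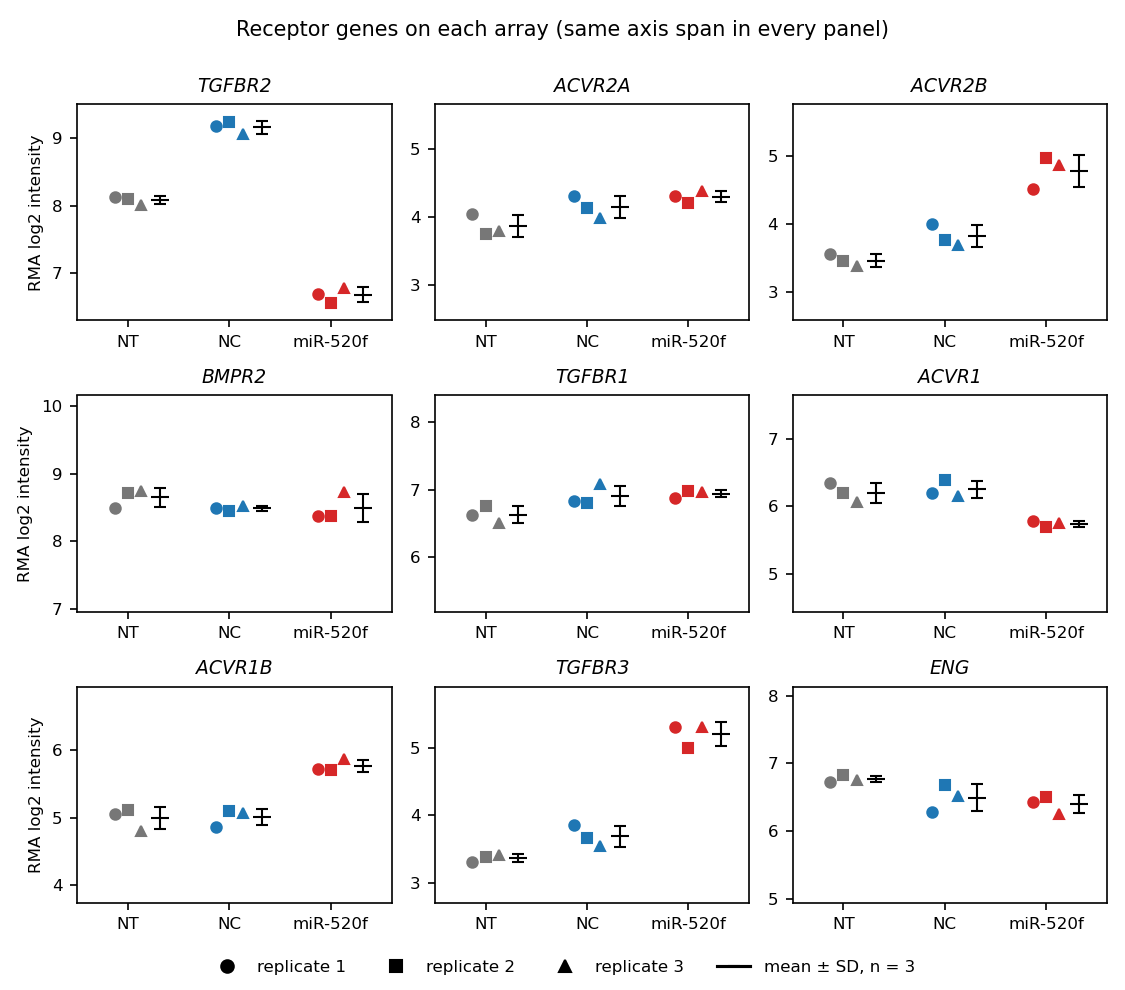
RMA log2 intensity (vertical axis) of the 9 receptor genes on each of the 9 arrays, by group (horizontal axis). Coloured symbols are arrays, their shape is the replicate number, and black bars give the mean ± SD (n = 3). The axis spans the same number of log2 units in every panel. The miR-520f arrays of TGFBR2 and ACVR1 lie below all 6 control arrays, and those of TGFBR3, ACVR2B and ACVR1B lie above them.

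Of the 4 type II receptor genes, 1 fell and 1 rose against both controls. TGFBR2 (probe set 2615360) encodes the type II receptor that binds TGF-beta. Its RMA log2 values were 8.13, 8.10 and 8.02 in NT cells, 9.18, 9.24 and 9.06 in NC cells, and 6.69, 6.56 and 6.78 with miR-520f. The 3 groups did not overlap, with miR-520f lowest, NT between and NC highest. The log2 difference was -1.40 against NT (SE 0.08, limma adjusted p = 6.63e-07), a level 2.64-fold lower, and -2.48 against NC (SE 0.08, limma adjusted p = 3.81e-08), a level 5.57-fold lower. Only 5 of the 14232 genes had a lower difference against NC, and 99 had a lower one against NT. The study is known for TGFBR2 as a target and took its targets from these arrays, so its fall here is not independent evidence of that choice.

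ACVR2B (probe set 2617752) and ACVR2A (probe set 2509557) encode the type II receptors of activin, which also serve BMPs and myostatin. ACVR2B measured 3.55, 3.45 and 3.37 in NT cells, 4.01, 3.77 and 3.69 in NC cells, and 4.52, 4.97 and 4.87 with miR-520f. Its miR-520f arrays were all above the 6 control arrays, with replicate 1 the lowest of them. The log2 difference was 1.33 against NT (SE 0.12, limma adjusted p = 1.52e-05) and 0.96 against NC (SE 0.12, limma adjusted p = 0.000137). These are levels 2.51-fold and 1.95-fold higher, from control values below the median of all gene means (4.53), where RMA compresses differences.

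ACVR2A measured 4.05, 3.76 and 3.79 in NT cells, 4.32, 4.13 and 3.99 in NC cells, and 4.31, 4.21 and 4.38 with miR-520f. The miR-520f arrays lay above the NT arrays and among the NC arrays. ACVR2A was called higher against NT (log2 difference 0.44, SE 0.10, limma adjusted p = 0.00867) and not against NC (0.16, 95% interval -0.07 to 0.39, limma adjusted p = 0.337). The NC level itself stood 0.28 above NT (95% interval 0.05 to 0.51, limma adjusted p = 0.107), so the difference between the comparisons was not called.

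BMPR2 (probe set 2523213), the type II receptor gene of BMPs, measured 8.49, 8.71 and 8.75 in NT cells, 8.49, 8.45 and 8.53 in NC cells, and 8.37, 8.37 and 8.73 with miR-520f. The groups overlapped. The log2 difference was -0.16 against NT (95% interval -0.40 to 0.08, limma adjusted p = 0.369) and 0.00 against NC (95% interval -0.24 to 0.24, limma adjusted p = 0.996). Replicate 3 of miR-520f stood apart from the other two. The difference against NC changed sign without single arrays, as the interval around 0 allows.

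**Figure D2:**
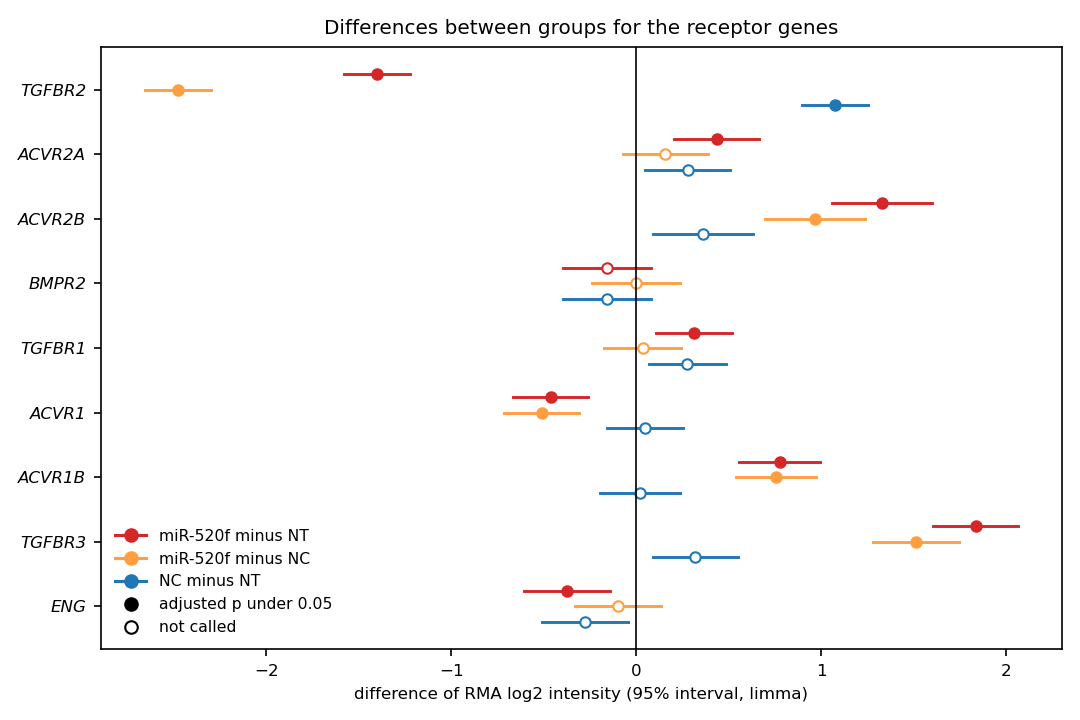
Differences between group means of RMA log2 intensity (horizontal axis) for the 9 receptor genes, with 95% intervals from limma, for miR-520f minus NT, miR-520f minus NC and NC minus NT. Filled points passed an adjusted p under 0.05 and open points did not. TGFBR2 is the only receptor gene with all 3 differences called.

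The type I receptor genes divided as well. ACVR1 (probe set 2582562), which encodes a type I receptor of BMPs and activins, measured 6.35, 6.20 and 6.06 in NT cells, 6.20, 6.39 and 6.15 in NC cells, and 5.78, 5.69 and 5.75 with miR-520f. All miR-520f arrays lay below all control arrays, and the controls overlapped each other. It fell by 0.46 on the log2 scale against NT (SE 0.09, limma adjusted p = 0.00295) and by 0.51 against NC (SE 0.09, limma adjusted p = 0.00150). In linear terms ACVR1 was 1.38-fold and 1.42-fold lower.

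ACVR1B (probe set 3415148), the type I receptor gene of activin and nodal, measured 5.06, 5.11 and 4.81 in NT cells, 4.87, 5.09 and 5.07 in NC cells, and 5.72, 5.71 and 5.87 with miR-520f. The miR-520f arrays were above all control arrays. Its log2 difference was 0.77 against NT (SE 0.10, limma adjusted p = 0.000140) and 0.76 against NC (SE 0.10, limma adjusted p = 0.000163), so that the rise was nearly the same size from either control (1.71-fold and 1.69-fold). The NC and NT levels differed by 0.02 (95% interval -0.20 to 0.24).

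TGFBR1 (probe set 3181728) encodes the type I receptor that pairs with TGFBR2. It measured 6.62, 6.77 and 6.51 in NT cells, 6.83, 6.81 and 7.08 in NC cells, and 6.88, 6.98 and 6.97 with miR-520f. The NT arrays were lowest, and NC and miR-520f overlapped. TGFBR1 was called higher against NT (log2 difference 0.31, SE 0.09, limma adjusted p = 0.0288), and against NC the difference was 0.04 (95% interval -0.17 to 0.24, limma adjusted p = 0.840). NC stood 0.28 above NT (95% interval 0.07 to 0.48, limma adjusted p = 0.0771), which was not called. Its fold against NT was 1.24, and the call was fragile. Over 17 alternative settings limma's adjusted p ran from 0.0143 to 0.112, and the call held in 10 and was lost in 7. Leaving out NT replicate 1 (0.0699) or 3 (0.112), or miR-520f replicate 1 (0.0518), 2 (0.0875) or 3 (0.0871), each ended it. TGFBR2 thus fell against both controls, whereas its partner gene TGFBR1 fell against neither.

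Both co-receptor genes were called against NT, in opposite directions. TGFBR3 (probe set 2422722) encodes betaglycan, which presents TGF-beta to TGFBR2 and also binds inhibin. It measured 3.30, 3.38 and 3.42 in NT cells, 3.86, 3.66 and 3.55 in NC cells, and 5.30, 4.99 and 5.31 with miR-520f. Every miR-520f array was above every control array by more than 1 log2 unit. Its log2 difference was 1.83 against NT (SE 0.10, limma adjusted p = 6.21e-07) and 1.51 against NC (SE 0.10, limma adjusted p = 1.99e-06), levels 3.57-fold and 2.86-fold higher. TGFBR3 was the largest rise among the receptor genes in both comparisons, and 17 of all genes rose more against NT and 46 more against NC. Its control values lay near the lower end of the scale, where RMA understates differences.

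ENG (probe set 3226097) encodes endoglin, a co-receptor known above all from endothelial cells. It measured 6.73, 6.82 and 6.75 in NT cells, 6.28, 6.69 and 6.52 in NC cells, and 6.43, 6.51 and 6.25 with miR-520f. The NT arrays were highest, and NC and miR-520f overlapped. ENG was called lower against NT (log2 difference -0.38, SE 0.11, limma adjusted p = 0.0203) and was -0.10 against NC (95% interval -0.33 to 0.13, limma adjusted p = 0.566). The difference of NC from NT was -0.27 (95% interval -0.51 to -0.04, limma adjusted p = 0.117) and was not called. Over the 17 alternatives limma's adjusted p against NT ran from 0.00510 to 0.0895. Leaving out NT replicate 2 (0.0740) or miR-520f replicate 3 (0.0895), an unmoderated fit (0.0727) or median-centred arrays (0.0625) ended the call.

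The identity of the cells was checked against markers. KRT8 and KRT18, keratins of simple epithelium, ran from 11.3 to 11.8 and from 8.66 to 9.35 over the 9 arrays, and KRT7 was dim (3.43 to 3.56). Of 6 epithelial markers, EPCAM and CDH1 rose and KRT19 fell against both controls, and the summed log2 values were 45.7 to 46.4 in NT, 45.3 to 45.9 in NC and 48.0 to 48.3 with miR-520f. The part of this shift in the receptor results was not tested. Of 8 endothelial markers measured, 7 had means below the median of all gene means, PECAM1, VWF and CDH5 among them, and 0 were called against both controls in either direction. Their summed log2 values ran from 25.9 to 27.7 in NT, 26.4 to 27.2 in NC and 26.3 to 26.6 in miR-520f cells. Of 7 fibroblast markers 5 were below that median, and COL1A1 and THY1 were not. The summed log2 values of the fibroblast markers were 32.1 to 32.4 in NT, 30.2 to 30.8 in NC and 30.8 to 31.5 with miR-520f, so all NT arrays lay above those of the other groups. The 5 markers below the median were COL1A2, COL3A1, PDGFRB, LUM and DCN. Their log2 differences with miR-520f ran from -0.07 to 0.14 against NT and from -0.17 to -0.01 against NC. THY1, a surface glycoprotein, had log2 differences of -0.65 against NT and 0.89 against NC, and COL1A1, a collagen chain, of -0.39 and 0.20. ENG was also highest in NT by its means, and the part of the fibroblast and endothelial markers in its difference was not tested. Of 5 immune markers 4 were below it, and CD68, a lysosomal protein that is not limited to macrophages, was not. CD68 fell against both controls (log2 differences -1.31 and -0.90), and the summed values of the immune markers were 21.8 to 22.3 in NT, 21.5 to 21.9 in NC and 20.1 to 20.9 with miR-520f. PTPRC, the marker of all leukocytes, ran from 2.88 to 3.14. Array medians ran from 4.22 to 4.34, and the root mean square deviation of an array from its group mean over all genes was 0.0698 to 0.169, the last in NC replicate 1.

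The comparison of NC with NT shows how far the receptor genes differed between the kinds of control. TGFBR2 was the 1 receptor gene of 9 that was called, higher in NC by 1.08 on the log2 scale (SE 0.08, limma adjusted p = 2.66e-05), a level 2.11-fold higher, where 15.3% of all genes were called (7.00% higher, 8.28% lower). Only 36 of all genes were higher by more. The size of the TGFBR2 fall with miR-520f thus differed between the comparisons by this tested amount, while its direction was the same. Among the receptor genes not called, the next in size were ACVR2B (0.36, limma adjusted p = 0.0740) and TGFBR3 (0.32, limma adjusted p = 0.0659), both higher in NC on every array than in NT. Leaving out 1 array brought a 2nd receptor gene to a call in 5 cases. These were TGFBR3 without NC replicate 3 (0.0399) or miR-520f replicate 2 (0.0389), ACVR2B without miR-520f replicate 1 (0.0361), ACVR2A without NT replicate 1 (0.0426) and ENG, lower in NC, without NC replicate 2 (0.0455), each by limma's adjusted p. The ligand gene TGFB1 and the signal transducer gene SMAD3, chosen after their values were seen, were lower in NC than in NT (log2 differences -0.60 and -0.68, limma adjusted p = 0.00572 and 0.000393). In the pathway lists described below, genes were called in both directions in NC against NT. Called higher and lower were 5 and 1 of 27 regulators, 1 and 3 of 27 ligands, and 0 and 3 of 25 ligand activators and antagonists. They were 1 and 3 of 18 output genes, 0 and 1 of 6 SMADs, and 1 and 0 of 7 other receptors. The regulators ZFYVE9 and WWP1, also chosen after their values were seen, were higher in NC (log2 differences 0.91 and 0.71).

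In 5 of the 9 receptor genes the 3 miR-520f arrays lay all above or all below the 6 control arrays, as in 25.4% of all genes. NT and miR-520f arrays were apart in 8 of 9 (41.1% of all genes), NC and miR-520f in 5 of 9 (39.4%), and NC and NT in 5 of 9 (27.0%), where the limma fit called 1 of 9. The median of the log2 differences over the receptor genes was 0.31 against NT and 0.04 against NC, beside -0.03 and -0.03 over all genes, since rises and falls were mixed. The median of their sizes regardless of sign was 0.46 and 0.51, beside 0.12 and 0.14 over all genes. The reference of all genes includes dimmer genes, in which RMA compresses differences. Its lower quartile of mean levels was 3.26, whereas the dimmest receptor gene over the 9 arrays, ACVR2B, stood at percentile 43.0 of mean level. That level includes the miR-520f arrays, in which ACVR2B and TGFBR3 rose. Their NT means were 3.46 and 3.37, nearer to the lower quartile. The shares and sizes over all genes were not matched to the receptor genes by level. The receptor genes varied within groups somewhat more than the median gene, with median SDs of 0.13 in NT, 0.15 in NC and 0.11 in miR-520f cells beside 0.10, 0.12 and 0.08.

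The other genes of the pathway were read from 6 lists with 110 measured genes, and their counts stand beside the shares of all genes called against both controls (9.37% higher, 8.61% lower). Of 7 other receptor and co-receptor genes, 0 rose and 2 fell against both controls. NRP1, a co-receptor of semaphorins and VEGF that also binds TGF-beta, fell from 7.48 ± 0.01 in NT and 7.45 ± 0.09 in NC to 6.43 ± 0.03 with miR-520f (RMA log2 values, SD, n = 3 each), with log2 differences of -1.04 and -1.02. Its relative NRP2 had log2 differences of -0.38 and -0.74 against NT and NC, in that order, as in the pairs that follow. NRP2 was dim, at 3.58 ± 0.06 in NT, 3.94 ± 0.25 in NC and 3.20 ± 0.04 with miR-520f (SD, n = 3 each). The NRP2 call against NT was lost under 6 of the 17 alternatives, with limma's adjusted p at 0.0508 to 0.0745 without miR-520f replicate 1, 2 or 3 or NT replicate 2 or 3, and at 0.0808 in an unmoderated fit. The type I receptor genes BMPR1B and ACVRL1, the type II receptor gene AMHR2 and the BMP co-receptor genes RGMA and HJV, chosen after their values were seen, were called in neither comparison. All were dim, with NT means of 3.07, 3.22, 3.27, 3.67 and 3.05 in that order, beside a lower quartile of all gene means of 3.26. At such levels a change could be missed.

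Of 27 ligand genes, 3 rose and 2 fell against both controls, and most were dim (median of their mean levels 3.35). BMP6, a BMP ligand gene, fell from 9.00 ± 0.17 and 9.40 ± 0.13 to 7.70 ± 0.07 (SD, n = 3 each; log2 differences -1.30 and -1.70), and INHBB, the subunit of activin B, fell by 0.97 and 0.45. TGFB3 (0.60 and 0.82) and BMP5 (0.60 and 0.51) rose from low levels. The third rise was TGFB2 (0.31 and 0.35; chosen after its values were seen). Its call against NT was lost under 8 alternatives (limma adjusted p up to 0.149), among them leaving out NT replicate 2 or 3, NC replicate 2 or miR-520f replicate 3. Its call against NC was lost under 3 (up to 0.0729), without NC replicate 3 and miR-520f replicate 3 among them.

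Of 25 genes that activate, store or block the ligands outside the cell, 0 rose and 6 fell against both controls, and 3 fell without miR-520f replicate 3. The BMP antagonist NOG (-3.05 and -2.91) and LTBP2, a matrix protein of the latent TGF-beta binding family (-2.13 and -1.77), had the largest log2 differences. LTBP4 (-0.60 and -0.46), which anchors latent TGF-beta in the matrix, fell as well. NRROS, which holds latent TGF-beta at the cell surface, had log2 differences of -0.65 and -0.45. Its call against NC (limma adjusted p = 0.0498) was lost under 9 of the 17 alternatives (0.0669 to 0.167), among them leaving out NC replicate 1 or 2, NT replicate 3 or any 1 miR-520f replicate. Its value without NC replicate 1 was -0.30. The call against NT was lost in the unmoderated fit (adjusted p = 0.0594).

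Of 27 regulators that act at the receptors, 3 rose and 5 fell against both controls. PMEPA1, a feedback inhibitor that keeps SMADs from the receptor (-1.46 and -1.27), and CD109, a membrane protein that binds TGF-beta and promotes loss of its receptors (-1.26 and -1.66), fell. STRAP, which holds SMAD7 at the receptor (0.72 and 1.04), and NEDD4L, a ubiquitin ligase of the pathway (0.61 and 0.64), rose. In an unmoderated fit the STRAP call against NT was lost (adjusted p = 0.0763).

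Of 6 SMAD genes that carry the signal, SMAD5, which serves BMP receptors, rose against both controls (0.38 and 0.51), and 0 fell. SMAD2 (-0.29 and -0.37) was called against NC (limma adjusted p = 0.0169) and not against NT (0.0510), and SMAD3 (-0.53 and 0.15) against NT (limma adjusted p = 0.000666) and not against NC (0.248). Both were chosen after their values were seen. SMAD2 was called lower against both under 6 alternatives, among them without NT replicate 1 and without NC replicate 1. Its call against NC was lost without NC replicate 2 or 3 or miR-520f replicate 1 or 2 (limma adjusted p = 0.0558 to 0.0611). Of 18 output genes, 5 rose and 2 fell against both controls. TGFBI (-1.64 and -1.59) and TGM2 (-1.09 and -0.83), which TGF-beta induces, fell, while SKI, a repressor of SMAD activity (0.85 and 0.69), and HEY1 (0.78 and 0.93), which BMPs induce in endothelial cells, rose. The other 3 that rose were CCN2 (0.41 and 0.61), KLF10 (0.70 and 0.43) and SKIL (0.57 and 0.50), which TGF-beta also induces, so TGF-beta-induced genes of the list moved in both directions. They are named here after their values were seen. The medians of the log2 differences over the 6 lists lay between -0.08 and 0.06 in both comparisons, beside -0.03 over all genes in each.

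**Figure D3:**
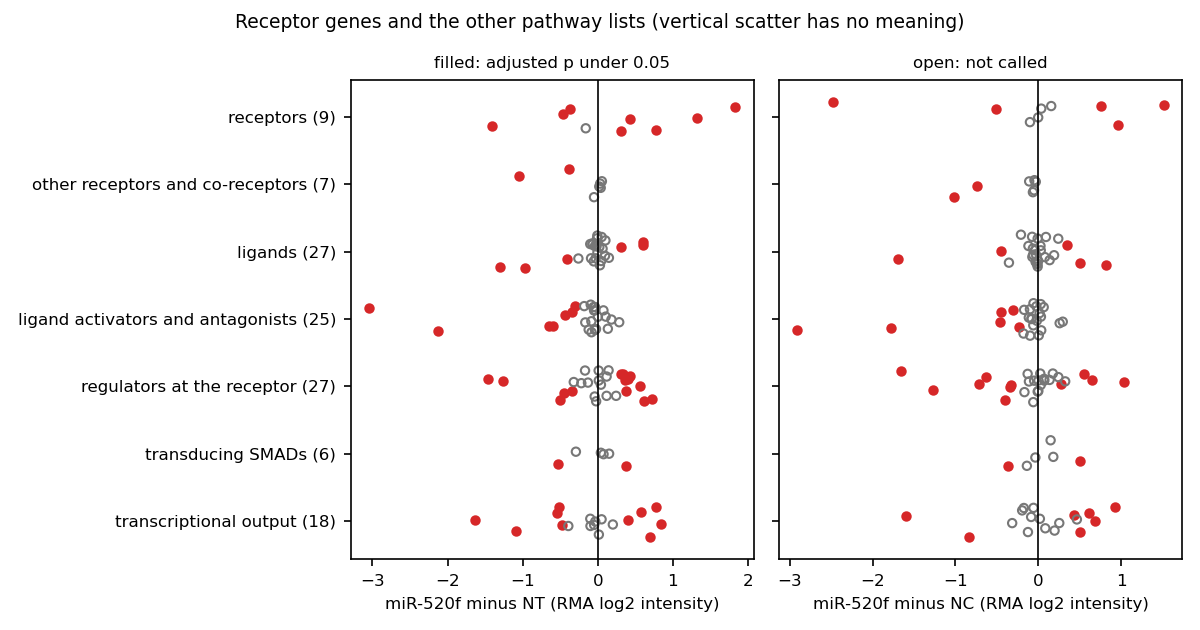
Log2 differences of miR-520f against NT (left) and against NC (right) for the receptor genes and the 6 other pathway lists, 1 point per gene, with the number measured in brackets. Filled points passed an adjusted p under 0.05 in limma. The receptor genes lie on both sides of 0, from -1.40 to 1.83 against NT and from -2.48 to 1.51 against NC, and the ligand activators and antagonists called against both controls all lie below 0.

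The genes whose values over the 9 arrays were most like those of TGFBR2 by Pearson's r were ASAP2 (0.998), NABP1 (0.996), CNOT6 (0.996), STEAP2 (0.994) and NRIP3 (0.993). In each of them the mean was lowest with miR-520f, between in NT and highest in NC, as in TGFBR2. ASAP2, for example, measured 9.93 ± 0.02 in NT, 10.7 ± 0.08 in NC and 9.05 ± 0.12 with miR-520f (SD, n = 3 each). For TGFBR3 the most like genes were IL6R (0.994), PRPF38A (0.994), PATJ (0.992), ZNF107 (0.992) and COL11A1 (0.989). Each was highest with miR-520f and, by its means, higher in NC than in NT. ZNF107, a zinc finger gene, measured 5.32 ± 0.04, 5.73 ± 0.12 and 6.80 ± 0.18 in the same order (SD, n = 3 each). These correlations are over 9 points in 3 groups, so they describe a shared order of the groups and carry no p. The genes were chosen by this likeness, so their order of the groups follows from the choice and is not a separate result.

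**Figure D4:**
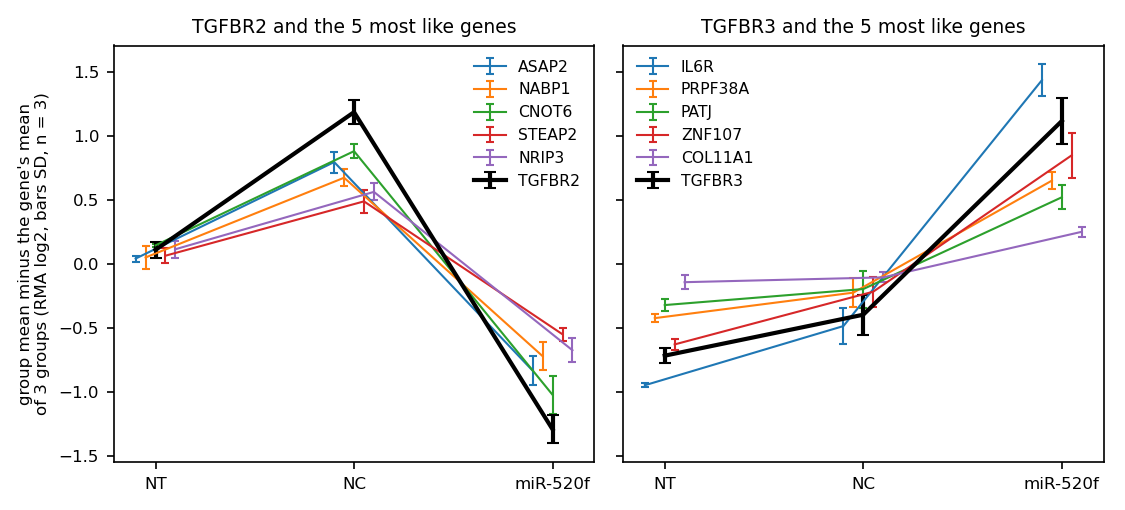
Group means (horizontal axis: NT, NC and miR-520f) of TGFBR2 and TGFBR3 (black) and the 5 genes most like each, as RMA log2 intensity minus the gene's mean over the 3 groups. Bars are SDs (n = 3). The genes most like TGFBR2 peak in NC and are lowest with miR-520f, and those most like TGFBR3 are highest with miR-520f.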

How the data were processed

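Gene expression was measured on Affymetrix arrays of 9 RNA samples, labelled with the GeneChip WT PLUS kit per the labels' protocols. The deposited table gives a log2 value per array for 22011 probe sets. RMA, Partek 6.6 and build hg18 are named in the submitters' processing notes, without settings. RMA normalizes between arrays and compresses differences of dim probe sets. Values ran from 2.23 to 13.6. The platform annotation named 14432 of them with 1 symbol and 2408 with several, and left 5171 unnamed here. The probe set with the highest mean over the arrays stood for a gene.

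Groups were compared with limma 3.58.1 in R 4.3.3, with 1 mean per group over 9 arrays, 6 residual degrees of freedom, empirical Bayes moderation and Benjamini-Hochberg adjustment over 14232 genes. The fit was tested on simulated data. The study used ANOVA in Partek, per the series' design text. An unmoderated fit, other scaling, filters and sample sets were alternatives. The receptor genes and all lists were chosen with earlier results of these data known. Named were the receptor genes, up to 4 genes a list changed against both controls, ranked by the smaller difference, and the 5 genes most like TGFBR2 and TGFBR3. The number of arrays limits the precision.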

Additional observations from a re-analysis of the deposited data

How the results depend on the processing

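Of 27 receptor results (9 genes in 3 comparisons), 17 kept their direction and their side of the threshold under all of the 17 alternatives run for them, and 2 lost a call under at least 1 (TGFBR1 and ENG against NT). The calls of TGFBR2, TGFBR3, ACVR1, ACVR1B and ACVR2B against both controls, and of ACVR2A against NT, held under each of the 17. Differences that were not called changed sign in 4 results. For BMPR2 against NC the log2 difference was 0.041 with arrays centred on the median and ran from -0.12 to 0.060 without single arrays, above 0 without NC replicate 1 or 3 or miR-520f replicate 1 or 2. For TGFBR1 against NC it ran from -0.015 to 0.12, below 0 without NC replicate 1 or 2. In NC against NT, ACVR1 ran from -0.026 to 0.12 (below 0 without NC replicate 2 or NT replicate 3) and ACVR1B from -0.073 to 0.090 (below 0 without NC replicate 2 or 3 or NT replicate 3). The number of receptor genes called in NC against NT was 2 with trended and robust moderation and 1 to 2 without single arrays. Over all genes that comparison called 2174, 1287 in an unmoderated fit and 1394 to 2181 without single arrays. Deviations of same-numbered arrays correlated between -0.03 and 0.20, over 0.1 in 4 of 9 pairs. Those of other pairs from different groups ran from -0.44 to 0.33. With so few arrays these values cannot settle whether the replicate numbers pair the samples. With the replicate block 8, 5 and 1 receptor genes were called against NT, against NC and between the controls, the same counts as without it. Over all genes the fit with the block called 4060, 4159 and 2297, beside 3927, 3996 and 2174 without it. Of 38 calls of the 19 pathway genes named by rule, 4 were lost under at least 1 alternative. No gene could be called absent, since no background values were used.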
